A study of Mus musculus with 6 samples.

Results

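Estrogen receptor alpha, encoded by Esr1, is a nuclear hormone receptor, and the luminal cells of the mammary duct that carry it sense circulating estrogen and relay the signal to their neighbors through secreted factors such as amphiregulin, Wnt4 and RANKL. Foxa1 is a pioneer factor that opens chromatin for the receptor, Gata3 is a zinc-finger factor of luminal fate, and Cited1 is a co-activator that binds the receptor rather than DNA. Prom1 and Ly6a are cell surface markers of this hormone-sensing subset in the mouse.

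The set described here holds 10 genes of hormone-sensing luminal cells, chosen by gene symbol: Esr1, Foxa1, Gata3, Cited1, Tbx3, Greb1, Stc2, Prom1, Ly6a and Myb. Of these, 9 had at least 1 probe set, and 22 probe sets in all mapped to exactly 1 of them, out of 34958 probe sets with 1 symbol (18194 genes). For Ly6a the annotation used named 0 probe sets, so it was not analysed here. The arrays held RNA of YFP-marked luminal mammary epithelial cells (MECs) of adult virgin females on a mixed B6/129/FVB background, with 1 array for each of 6 mice: 3 of genotype MMTV-Cre;Runx1L/L;R26Y (Runx1-null) and 3 of genotype MMTV-Cre;Runx1+/+;R26Y (Runx1-WT). All 6 mice thus carried the MMTV-Cre transgene, driven by a mouse mammary tumor virus promoter that is active in luminal and some basal cells, and the R26Y allele, which makes YFP after Cre acts, and they differed by the loxP-flanked Runx1 allele. YFP reports Cre activity and not the loss of Runx1 in each cell. The study's methods describe the mice as littermates, but which mice shared a litter, their age beyond adult and the stage of the estrous cycle are not given in the sources used here, so litter could not enter the fit.

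Intensities are linear array values after the normalization of the study, and they are given below for Runx1-WT mice 1, 2 and 3 and then Runx1-null mice 1, 2 and 3, where the numbers only name the mice. For testing, values under 19.335, the 20th percentile of all values, were raised to it and put on the log2 scale, and differences are Runx1-null minus Runx1-WT. A gene is represented by its brightest probe set, called its leading probe set. Levels of different probe sets are not comparable, since probes bind with different strength. In a sorted cell pool, fewer cells that express a gene and less RNA per cell cannot be told apart.

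The sort was checked against marker genes and the targeted gene. The luminal keratin gene Krt8 and the epithelial adhesion gene Epcam measured 10459 to 12535 and 9411 to 10667, and the 8 luminal epithelial markers together summed to 73114 to 78013 in Runx1-WT mice and, in Runx1-null mice, to 75076 to 82032. Markers of other cell types were also detected: the stromal collagen gene Col3a1 measured 1306 to 3664, and the basal keratin gene Krt5 123 to 628. Other basal genes were brighter, such as Krt14 (787 to 2845), or dimmer, such as Cnn1 (7.55 to 48.0). The leukocyte gene Ptprc measured 18.3 to 47.4 in 5 mice and 205 in Runx1-WT mouse 3. A brighter leukocyte gene, Lyz2, measured 269 to 569 in those 5 mice and 1894 in Runx1-WT mouse 3. None of the markers named in the lists was below 19.335 in all 6 mice, but the basal gene Cnn1 and the leukocyte genes Ptprc, Cd79a and Itgam were in some. The 6 probe sets of Runx1 overlapped between genotypes (log2 differences -0.19 to 0.26), but exon 4 alone is loxP-flanked and the probes were not placed relative to it here, so these values do not check the genotype labels.

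Limma called 0 of the 18 member probe sets that passed a filter on low intensity, at a Benjamini-Hochberg adjusted p under 0.05, beside 0% of all 27022 tested probe sets, where the lowest adjusted p was 1. At an unadjusted p under 0.05, 2 of 18 were lower in Runx1-null mice, those of Cited1 and Foxa1, beside 1.33% of all probe sets in either direction and 0.877% lower. Without the filter, their unadjusted limma p was 0.0576 and 0.0755. Since the members were chosen with earlier results of these data known, the shares over all probe sets are not an independent yardstick for them. The mice of each genotype stayed apart, with no overlap, for 0 of the 18 member probe sets, beside 4.85% of all probe sets. The mean difference was below 0 for 13 member probe sets and above 0 for 5, with a median of -0.18 on the log2 scale, beside a median of -0.044 and 59.2% below 0 over all tested probe sets. The members' median was -0.086 with arrays scaled to a common median and 0.10 with Runx1-null mouse 1 left out, where its direction turned. It was -0.0017 and -0.058 with Runx1-WT mouse 1 or 2 left out, -0.42 with Runx1-WT mouse 3 left out, and -0.29 and -0.35 on omitting Runx1-null mice 2 and 3 in turn. In mice simulated at this sample size, limma recovered 10% of 100 probe sets changed 2-fold and 45% of 100 changed 4-fold. A change of the size seen for most members would thus seldom be called in such data. The simulated noise was independent between probe sets, without variation that the probe sets of a mouse share, so the rates in these arrays may differ. The other 4 member probe sets lay under the filter: 1 of 3 for Esr1, 1 of 5 for Tbx3 (below 19.335 in all 6 mice) and 2 of 4 for Greb1.

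**Figure D1:**
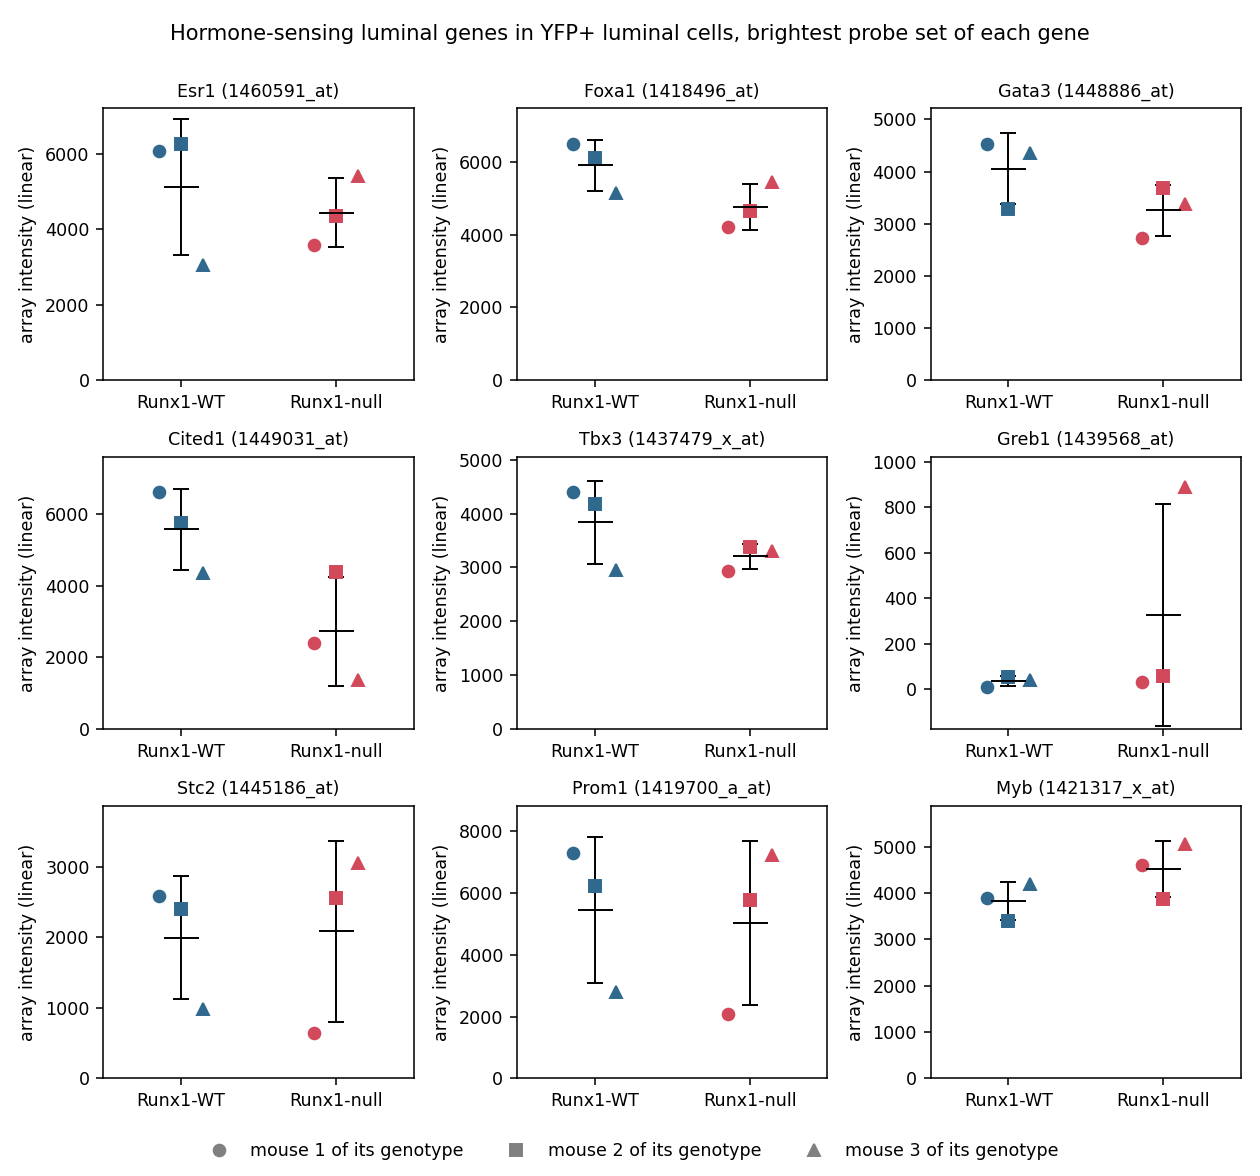
Linear array intensity of the leading probe set of the 9 measured genes in each mouse, on axes that differ between genes. Blue points are Runx1-WT and red points Runx1-null mice, the symbol gives the mouse number, and black bars are the mean and SD of 3 mice. Cited1 spans 4359 to 6591 in Runx1-WT mice and 1372 to 4383 in the Runx1-null ones, Esr1, Stc2 and Prom1 have a low mouse in each genotype, and Greb1 is high in Runx1-null mouse 3 (888).

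The receptor gene itself was bright in both genotypes. Esr1 intensity was 6067, 6271 and 3055 in Runx1-WT mice, against 3593, 4345 and 5399 in Runx1-null mice. The lowest of the 6 values came from a Runx1-WT mouse, the highest also came from one, and the Runx1-null mice lay between them. Mean intensity was 5131 ± 1801 for Runx1-WT and 4446 ± 907 for Runx1-null (SD, n = 3 each), so the log2 difference was -0.15 (SE 0.30; 95% interval -0.87 to 0.56; limma adjusted p = 1; exact permutation test, two-sided, p = 0.8, where p cannot go below 0.1 with 3 mice per genotype). The interval spans differences in both directions. The next probe set, at 4115, 4612 and 1859 against 1876, 3016 and 3065, ranked the mice in the same order (Spearman rho 1, Pearson r 0.96 over 6 mice, a description), with a difference of -0.34. The dim Esr1 probe set under the filter lay near the floor, at 20.1 to 31.4 in Runx1-WT mice, against 11.8 and 18.6 in Runx1-null mice 1 and 2 and a value just under the lowest Runx1-WT mouse in Runx1-null mouse 3, and was not in the limma fit. Its genotypes did not overlap (exact permutation test p = 0.1), although 2 of the Runx1-null values were below 19.335.

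Foxa1, the pioneer factor of the receptor, was lower on average in Runx1-null mice but not separated by genotype. Its intensity was 6493, 6086 and 5127 in Runx1-WT mice, against 4193, 4644 and 5426 in Runx1-null mice. Runx1-null mouse 3 lay above Runx1-WT mouse 3, and this pair made the overlap. The log2 difference was -0.31 (SE 0.13; 95% interval -0.62 to -0.0047; unadjusted limma p = 0.0475, adjusted p = 1; exact permutation test p = 0.2), that is 1.24-fold lower. Gata3, the luminal fate factor, gave the same mean difference with more overlap. It measured 4538, 3278 and 4361 against 2726, 3678 and 3376, with Runx1-WT mouse 2 below 2 of the Runx1-null mice (log2 difference -0.31, SE 0.17; 95% interval -0.72 to 0.094; adjusted p = 1; exact permutation test p = 0.3).

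Cited1, the receptor's co-activator, had the lowest difference of the 9 genes. Its intensity was 6591, 5743 and 4359 in Runx1-WT mice, against 2412, 4383 and 1372 in Runx1-null mice. Runx1-null mouse 3 was the lowest of the 6 and Runx1-null mouse 1 the next, while Runx1-null mouse 2 lay level with Runx1-WT mouse 3. Mean intensity was 5564 ± 1127 for Runx1-WT and 2722 ± 1529 for Runx1-null (SD, n = 3 each), so the log2 difference was -1.17 or 2.25-fold (SE 0.41; 95% interval -2.14 to -0.20; unadjusted limma p = 0.0247, adjusted p = 1; exact permutation test p = 0.2). Without Runx1-null mouse 3 the difference was -0.75, and without Runx1-null mouse 2 it was -1.59.

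The T-box repressor gene Tbx3, which acts in formation of the mammary bud, was lower on average in Runx1-null mice, with overlap between the genotypes. Its leading probe set measured 4391, 4170 and 2961 in Runx1-WT mice, against 2930, 3371 and 3313 in Runx1-null mice. Runx1-WT mice 1 and 2 stood above the other 4 mice, which lay close together. The log2 difference was -0.24 (SE 0.17; 95% interval -0.64 to 0.16; exact permutation test p = 0.3), and the other 3 tested probe sets gave -0.38 to -0.11. The leading probe sets of Tbx3 and Myb carry the suffix x_at, which Affymetrix gives to sets whose probes may also bind other transcripts, so their levels are less certain. A dimmer Tbx3 probe set followed another order over mice, at 396, 302 and 221 against 350, 240 and 142, with r = 0.42 to the leading one.

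**Figure D2:**
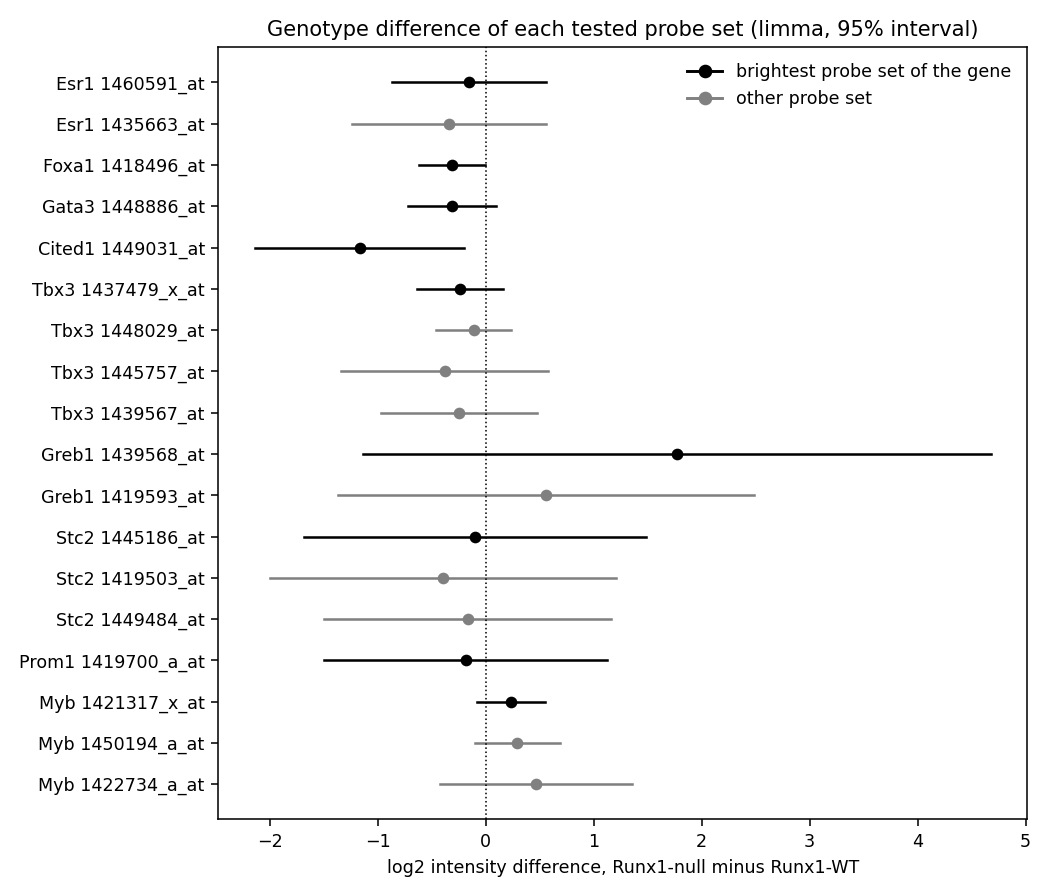
Log2 intensity difference (Runx1-null minus Runx1-WT) of the 18 tested member probe sets, with points for the mean difference and lines for the 95% limma interval, in black for the leading probe set of a gene and in grey for others. The intervals of Cited1 and Foxa1 end below 0, at -0.20 and -0.0047, the others cross it, and Greb1 has the widest interval.

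Greb1, Stc2 and Myb are genes known in human breast cancer cells to respond to estrogen: Greb1 encodes a cofactor of the receptor, Stc2 a secreted glycoprotein and Myb a transcription factor. The leading probe set of Greb1 measured 10.6, 54.9 and 41.1 in Runx1-WT mice, against 34.0, 57.2 and 888 in Runx1-null mice. Apart from Runx1-null mouse 3, the mice lay near the low end of the array's range, and the genotypes overlapped. The next probe set had the same high mouse, at 258 in Runx1-null mouse 3 and 33.8 to 66.3 in the other 5. The log2 difference of 1.77 (SE 1.22; 95% interval -1.14 to 4.68; exact permutation test p = 0.4) was 0.33 without that mouse. The 2 probe sets under the filter measured 45.3 to 68.1, with Runx1-null mouse 1 the highest and Runx1-null mouse 3 at 53.6, and 3.84 to 43.0, with Runx1-null mouse 3 the highest.

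Stc2 separated mice within each genotype more than it separated the genotypes. It measured 2592, 2399 and 991 in Runx1-WT mice, against 636, 2562 and 3060 in Runx1-null mice. A single mouse of each genotype, Runx1-WT mouse 3 and Runx1-null mouse 1, lay far under the other 4. The log2 difference was -0.10 (SE 0.66; 95% interval -1.69 to 1.48; exact permutation test p = 0.9), and the highest mouse exceeded the lowest 4.81-fold. The other 2 probe sets had the same lowest pair of mice, with differences of -0.39 and -0.17. Prom1, which encodes the surface protein CD133, had the same shape: 7311, 6241 and 2780 against 2067, 5762 and 7227 (log2 difference -0.19, SE 0.55; 95% interval -1.50 to 1.12; exact permutation test p = 0.6).

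Myb and Greb1 were the genes whose leading probe set had a log2 difference above 0. It measured 3898, 3398 and 4193 in Runx1-WT mice, against 4611, 3881 and 5070 in Runx1-null mice. Runx1-null mouse 3 was the highest, and Runx1-null mouse 2 lay among the Runx1-WT mice. The log2 difference was 0.24 (SE 0.13; 95% interval -0.078 to 0.55; adjusted p = 1; exact permutation test p = 0.3). The other 2 probe sets gave 0.29 and 0.46, and ranked the mice nearly alike (Spearman rho 0.94 and 0.83 to the leading one).

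The promoters of the genes these comparisons turn on are shown because Runx1, the deleted factor, and the luminal factors above bind DNA by known short motifs. Windows from 250 bases before to 50 bases after an annotated start were taken from RefSeq (GRCm38.p6), which gave 13 windows for 8 of the 10 genes. Capitals mark any match, on either strand, to the RUNX motif (TGTGGT or TGCGGT), the forkhead motif (TGTTTAC or TGTTTGC), the GATA motif (AGATAA) or AGGTCA, the core of an estrogen response element. A window is shown for Cited1 (the most negative difference by genotype), Esr1, Foxa1, and the pair that varied most alike among mice, Stc2 and Prom1. It is the first listed window of each gene; of the windows not shown, 2 of Cited1, 1 of Esr1 and 1 of Prom1, 0 hold a RUNX match. They read 5′ to 3′ along the gene's strand as follows.
Cited1, chrX:102252132-102252431, minus strand: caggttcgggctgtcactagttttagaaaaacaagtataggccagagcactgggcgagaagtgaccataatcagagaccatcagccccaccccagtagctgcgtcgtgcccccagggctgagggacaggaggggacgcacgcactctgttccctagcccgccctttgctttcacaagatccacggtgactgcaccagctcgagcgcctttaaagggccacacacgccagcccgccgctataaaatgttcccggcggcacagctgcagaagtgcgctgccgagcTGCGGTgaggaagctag
Esr1, chr10:4611739-4612038, plus strand: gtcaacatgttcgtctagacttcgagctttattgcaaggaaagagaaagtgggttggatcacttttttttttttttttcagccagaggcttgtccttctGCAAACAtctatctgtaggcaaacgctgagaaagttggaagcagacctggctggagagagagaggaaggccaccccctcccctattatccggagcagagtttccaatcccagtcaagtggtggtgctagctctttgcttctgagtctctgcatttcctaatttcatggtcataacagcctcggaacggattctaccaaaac
Foxa1, chr12:57546062-57546361, minus strand: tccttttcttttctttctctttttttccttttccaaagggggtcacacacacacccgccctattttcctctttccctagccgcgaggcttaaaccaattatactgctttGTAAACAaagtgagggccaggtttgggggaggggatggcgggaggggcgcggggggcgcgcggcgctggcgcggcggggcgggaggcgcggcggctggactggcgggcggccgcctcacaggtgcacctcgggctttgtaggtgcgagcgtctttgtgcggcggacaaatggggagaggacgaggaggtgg
Stc2, chr11:31370012-31370311, minus strand: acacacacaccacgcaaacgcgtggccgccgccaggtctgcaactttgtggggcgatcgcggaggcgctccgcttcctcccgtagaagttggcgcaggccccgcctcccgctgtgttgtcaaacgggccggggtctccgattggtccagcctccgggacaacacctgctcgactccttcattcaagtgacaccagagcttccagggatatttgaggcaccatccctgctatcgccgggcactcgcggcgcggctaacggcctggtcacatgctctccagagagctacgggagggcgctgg
Prom1, chr5:44101687-44101986, minus strand: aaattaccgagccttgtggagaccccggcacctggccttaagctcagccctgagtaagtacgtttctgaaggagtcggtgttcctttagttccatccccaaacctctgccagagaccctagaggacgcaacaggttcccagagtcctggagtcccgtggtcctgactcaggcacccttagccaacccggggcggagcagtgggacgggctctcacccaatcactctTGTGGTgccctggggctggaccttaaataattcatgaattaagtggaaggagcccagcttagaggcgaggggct

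The RUNX motif was found in 3 of the 13 windows, beside 22.4% of 32851 windows of all genes. These were the Cited1 window printed above, with TGCGGT 34 bases after the start, the Prom1 window, with TGTGGT 24 bases before it, and a Greb1 window, with TGCGGT 208 bases before it. The printed Esr1 and Foxa1 windows each hold a forkhead match, 151 and 141 bases before the start, as does the Myb window after its start, where 8.48% of all windows hold one. AGGTCA occurred in 1 Cited1 and 1 Greb1 window (16.3% of all windows). The GATA motif (11.2% of all windows) and the full palindromic estrogen response element (0.07%) had 0 matches in the 13 windows. The Stc2 window holds 0 of these matches, so it could share none with Prom1. Such matches are letters in a window and not measured binding. Sequence outside the windows was not searched, and the study describes RUNX motifs of human FOXA1 and ESR1 that lie further upstream than these windows reach.

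Over the 6 mice, the genes fell into patterns that crossed the genotypes. Runx1-WT mouse 3 and Runx1-null mouse 1 were the lowest pair for 10 of the 18 member probe sets, beside 11.6% of all tested probe sets. They were so for 4 of the 9 leading ones (Esr1, Tbx3, Stc2 and Prom1), beside 14.3% of the leading probe sets of named genes. This pair was picked after the member values were seen, so these shares are not an independent yardstick for it. As a description over 6 mice in 36 pairs of genes, Pearson r was 0.99 between Stc2 and Prom1, 0.89 between Esr1 and Tbx3, 0.87 between Esr1 and Prom1 and 0.80 between Esr1 and Stc2. Cited1 followed Esr1 weakly by Pearson r (0.19) and more closely by rank (Spearman rho 0.54). It ran opposite to Myb (r = -0.90, rho -0.83) and, less so by rank, to Greb1 (r = -0.80, rho -0.49). Runx1-null mouse 3, the lowest for Cited1 and the highest for Greb1 and Myb, weighs on these r values. Runx1-null mouse 1 was the lowest of the 6 mice in 8 of 18 member probe sets (20.2% of all tested probe sets) and Runx1-WT mouse 1 the highest in 8 (27.5%). These values share arrays and the normalization, and r over 6 mice is loosely determined.

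The same pair was lowest for 5 of 18 tested partners and targets of the receptor (Pgr, Xbp1, Ctsd, Cxcl12 and Agr2). It was lowest for 3 of 12 family relatives of the members (Ly6d, Ly6e and Prom2) and for 2 of 15 coregulators of the receptor. The share was 14.3% for the leading probe sets of named genes. Pgr, the progesterone receptor gene and an estrogen target, measured 5145, 5978 and 2865 in Runx1-WT mice, against 2906, 5641 and 7128 in Runx1-null mice (log2 difference 0.14, SE 0.40). Ly6d, a relative of Ly6a in the Ly6 family, measured 9522, 9983 and 3210 against 3675, 7750 and 10502. Both genes were thus low in Runx1-WT mouse 3 and Runx1-null mouse 1 and high in the other 4 mice. Tnfsf11, which encodes RANKL, measured 9.67 and 6.87 in Runx1-WT mice 1 and 2 and 4980 in mouse 3, against 337, 134 and 28.8 in Runx1-null mice, and was thus highest in the pair in which those genes were low. These genes were picked after their values were seen.

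Of the marker lists for other states, that of DNA replication and mitosis moved with the same pair of mice. The 9 tested genes of DNA replication and mitosis summed to 14301, 7922 and 21760 in Runx1-WT mice, against 25689, 10485 and 7617 in Runx1-null mice. The highest sums thus came from the pair of mice with low Esr1, Stc2 and Prom1, as in Mki67, a marker of cycling cells (539, 126 and 712 against 1026, 101 and 63.2). The 6 tested leukocyte markers summed to 1089 to 3756 in Runx1-WT and 908 to 1485 in Runx1-null mice, and the highest sum was that of Runx1-WT mouse 3. The 9 tested basal markers summed to 7490, 5419 and 13897 in Runx1-WT mice, against 14932, 15104 and 5398 in Runx1-null mice. Runx1-WT mouse 3 and Runx1-null mouse 1 were thus also high in these, as was Runx1-null mouse 2, which had the highest sum. The 8 tested genes of ER-negative luminal progenitors summed to 37456 to 45056 in Runx1-WT mice, against 42703 to 47577 in Runx1-null mice. Their highest sum was that of Runx1-null mouse 3. Endothelial markers had 6 of 6 tested genes below 0 by genotype, with sums of 1190 to 1513 against 654 to 1186, and stromal markers 7 of 8, with sums of 11942 to 13888 against 4859 to 12347. The part of these cells in the member values was not tested.

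**Figure D3:**
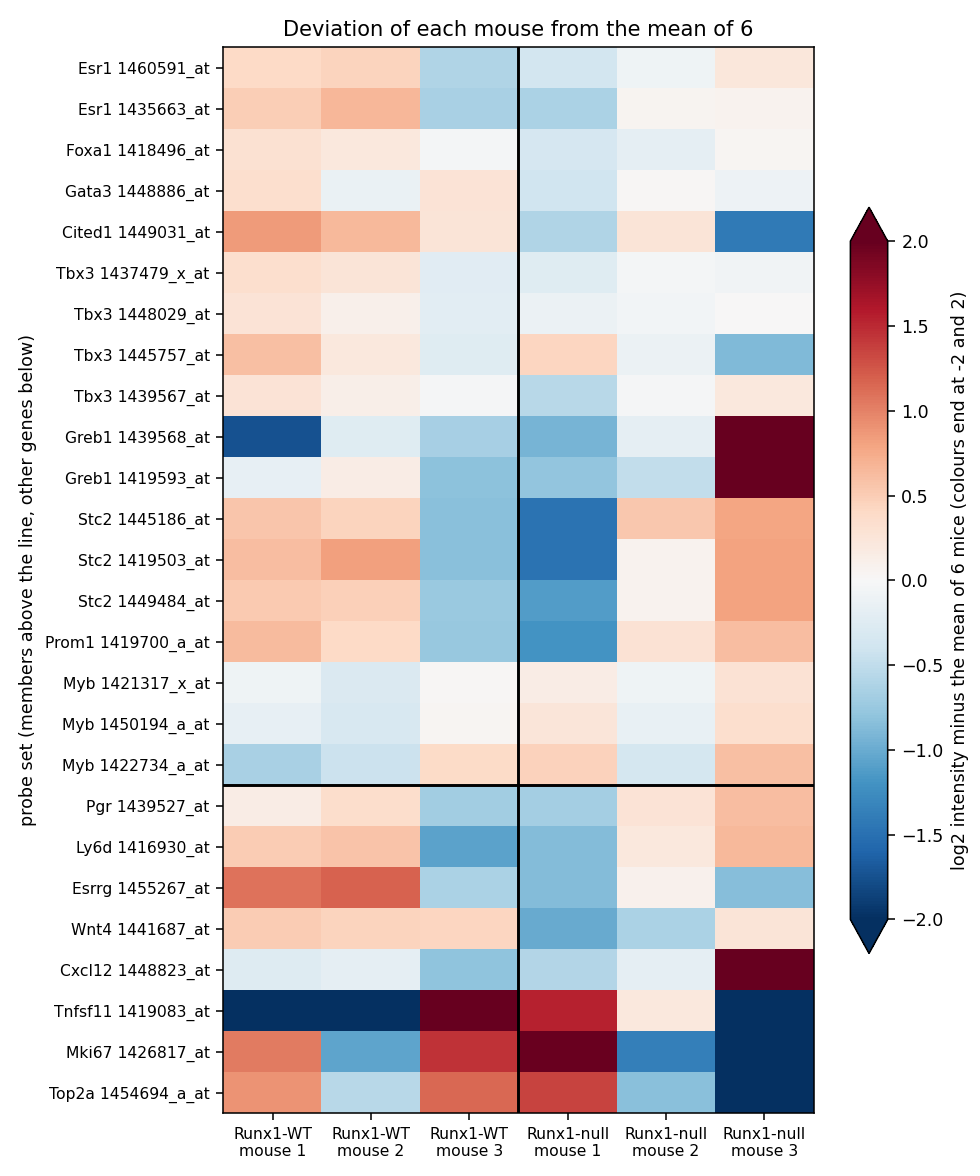
Log2 intensity of each mouse minus the mean of the 6 mice, red above and blue below that mean, for the 18 tested member probe sets (above the horizontal line) and 8 further genes (below it), with Runx1-WT mice left and Runx1-null mice right of the vertical line. Esr1, Stc2, Prom1, Pgr and Ly6d are blue in Runx1-WT mouse 3 and Runx1-null mouse 1, where Mki67 and Top2a are red, and Greb1 and Cxcl12 are deep red in Runx1-null mouse 3.

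Runx1-null mouse 3 stood apart in another set of genes. Besides the high Greb1 and the low Cited1 given above, its level of Cxcl12, a chemokine gene induced by estrogen in human breast cancer cells, was 3270 against 465 to 722 in the other 5 mice. It was the highest of the 6 mice in 7 of 18 member probe sets, beside 14.5% of all tested probe sets. Those 7 belong to Greb1, Stc2 and Myb. It was the lowest in 2 of 18, beside 32.5%. By leading probe set, this mouse was the highest in 3 of 9 genes and the lowest in 1. Its array also had the lowest median intensity (106 against 129 to 163 in the other 5), and with arrays scaled to a common median the Cited1 difference was -1.08. The 8 stromal markers summed to 4859 in this mouse and 11081 to 13888 in the other 5, and the log2 gap from the 5′ to the 3′ Gapdh control, which tracks RNA integrity, was highest in it (0.61 against 0.46 to 0.55 on the log2 scale). The part of these in its member values was not tested.

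The genotype difference was also taken within the 2 ranges of animal numbers in the labels, a lower range with 2 mice of each genotype and an upper range with 1 of each (mouse 3 of each genotype). What the ranges stand for is not given. In the lower range 14 of the 18 member probe sets were lower in Runx1-null mice and in the upper range 3 of 18, and the sign was opposite in 11. Several of these probe sets belong to the same gene. The same counts over all tested probe sets were not made, so these cannot be read as particular to the members. Of the leading probe sets, Cited1 (-0.92 in the lower and -1.67 in the upper range), Gata3 (-0.28 and -0.37), Myb (0.22 and 0.27) and Greb1 (0.44 and 4.43) kept their sign. The other 5 turned: Esr1 from -0.64 to 0.82, Foxa1 from -0.51 to 0.082, Tbx3 from -0.45 to 0.16, Stc2 from -0.97 to 1.63 and Prom1 from -0.97 to 1.38. With 1 mouse of each genotype, the upper range has no replicate check.

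**Figure D4:**
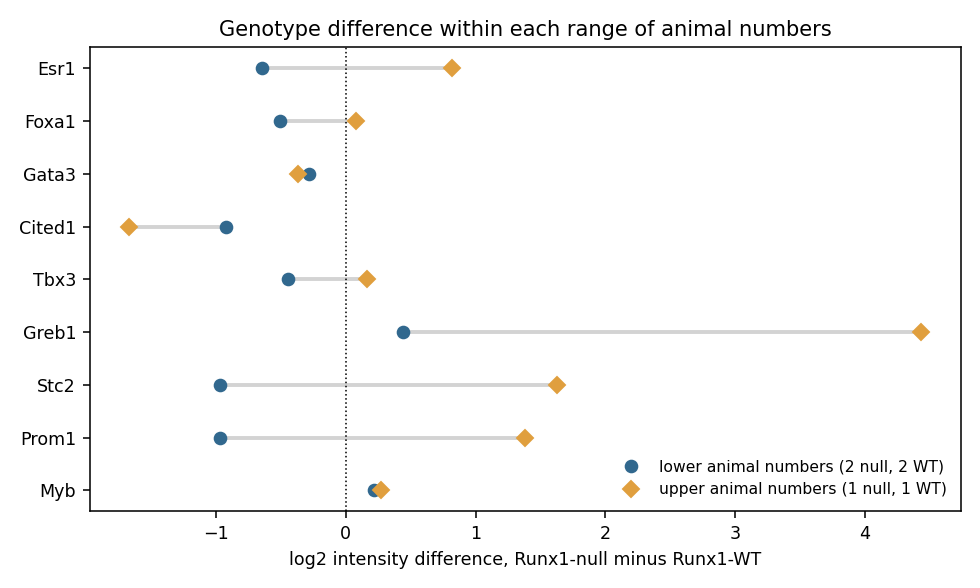
Log2 intensity difference (Runx1-null minus Runx1-WT) of the 9 leading probe sets within the lower range of animal numbers (blue circles, 2 mice of each genotype) and the upper range (yellow diamonds, 1 of each), joined by grey lines. For 5 genes the line crosses 0, and for Cited1, Gata3, Greb1 and Myb both points lie on one side.

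To see whether a gene differed between genotypes by more than Esr1, its log2 level minus that of Esr1 was compared over mice. For Cited1 this value was 0.12, -0.13 and 0.51 in Runx1-WT mice, against -0.58, 0.013 and -1.98 in Runx1-null mice. Runx1-null mouse 2 lay within the Runx1-WT range, and the means differed by -1.01 (exact permutation test p = 0.2; adjusted p = 1 over the 8 genes compared). The differences of the other 7 genes were -0.16 to 1.92, with exact permutation p of 0.3 to 1, and 0 of the 8 genes separated the genotypes, beside 1.17% of all tested probe sets.

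Against the mean of 5 luminal epithelial genes (Krt8, Krt18, Krt19, Epcam and Cd24a) in place of Esr1, the mice of both genotypes did not overlap for 2 of 9 genes, Foxa1 and Cited1, beside 6.01% of all tested probe sets. Relative Foxa1 was -0.86, -0.92 and -1.11 in Runx1-WT mice, against -1.42, -1.32 and -1.23 in Runx1-null mice, a difference of -0.36. Relative Cited1 was -1.34 to -0.83 in Runx1-WT mice, against -2.22, -1.40 and -3.21 in Runx1-null mice, a difference of -1.22. Every Runx1-null mouse was therefore below every Runx1-WT mouse for these genes on this scale, with an exact permutation p of 0.1 for each, the smallest possible, and an adjusted p of 0.36 over 9 genes. Here too, the genes were chosen with earlier results of these data known.

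Partners and targets of the receptor lay on both sides of 0. Of 26 listed genes 22 had a probe set and 18 were tested: 0 were called, 12 had a mean difference above 0 and 6 below, and the median was 0.033 on the log2 scale, beside -0.022, with 55.4% below 0, for the leading probe sets of all named genes. Wnt4, a secreted signal of hormone-sensing cells, was the 1 gene at an unadjusted p under 0.05 (1.75% of named genes). It measured 1592, 1526 and 1498 in Runx1-WT mice, against 552, 717 and 1336 in Runx1-null mice. Every Runx1-null mouse was below the Runx1-WT mice, which lay close together, as for 5.56% of named genes, although Runx1-null mouse 3 came near them (log2 difference -0.93, SE 0.33; unadjusted limma p = 0.0266, adjusted p = 1; exact permutation test p = 0.1). The retinoic acid receptor gene Rara (-0.31) and the growth factor binding protein gene Igfbp4 (-0.26) followed by p, after Cxcl12 (0.83, with its 1 high mouse), at unadjusted p of 0.249 to 0.309.

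Coregulators of the receptor had 12 of 15 tested genes below 0, a median of -0.12 and 0 calls. The 4 with the lowest unadjusted p were the corepressor gene Tle3 (-0.17), Tfap2a (-0.17), a transcription factor gene of the AP-2 family, the coactivator gene Ncoa2 (-0.19) and the GATA-type repressor gene Trps1 (-0.13), at unadjusted p of 0.118 to 0.269. Relatives of the 10 genes by family had 6 of 12 tested genes above 0 and 6 below, with a median of 0.028 and 0 calls. The lowest p among them was that of Esrrg, the estrogen-related receptor gamma gene, at 2466, 2614 and 748 against 634, 1232 and 643. Runx1-WT mouse 3 lay among the Runx1-null mice there (log2 difference -1.09, SE 0.54; unadjusted p = 0.084; exact permutation test p = 0.2).

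The genes most like Esr1 over the 6 mice by Pearson r of log2 levels were Slc2a12 (0.9983), Mfsd11 (0.9971) and Las1l (0.9967), where 197 probe sets of other genes reached 0.95. Slc2a12, a sugar transporter gene, measured 434, 502 and 100.6 in Runx1-WT mice, against 154, 221 and 366 in the Runx1-null mice, low in the mice in which Esr1 was low. Those most like Foxa1 were Oaz2 (0.9956), Smpd1 (0.9929) and 5430400D12Rik (0.9905). Those most like Cited1 were Prr15 (0.9974), Lox (0.9972), which encodes the matrix enzyme lysyl oxidase, and Rgmb (0.9935), a co-receptor gene of BMP signaling. Rgmb measured 1130, 1085 and 910 against 688, 963 and 450, so that Runx1-null mouse 3 was again the lowest. With 6 mice and 27022 probe sets, such likeness is a description of these arrays.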

How the data were processed

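RNA of YFP-marked Lin−CD24+CD29lo luminal MECs, sorted from thoracic and inguinal glands, was amplified (NuGEN Ovation V2) and hybridized to mouse 430 2.0 arrays of Affymetrix. The deposited table holds linear intensity values for 45101 probe sets, which the authors made comparable between arrays with dChip. Its version and model are not given in the sources used here. That scaling sets all levels relative to the other arrays, and amplification can compress or stretch differences. Arrays give no counts, so their number (3 mice per genotype) limits the precision.

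Gene names came from GEO's platform annotation: of the probe sets, 34958 had 1 symbol, 932 several and 9211 were unnamed here. After leaving out 64 controls, probe sets with a mean intensity of at least 73.493 (40th percentile) were tested on log2 values floored at the 20th percentile, by limma 3.58.1 in R 4.3.3, with an intensity trend in eBayes and Benjamini-Hochberg adjustment over 27022 probe sets. Exact permutation tests (two-sided, scipy 1.17.1) served for single values. Litter was not in the fit.

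The members and gene lists were chosen with earlier results of these data known. All members and their probe sets are named, with the 3 genes most like Esr1, Foxa1 and Cited1, up to 4 genes of each pathway list with the lowest p, and every receptor partner or target at an unadjusted p under 0.05. Alternatives were other filters, floors and scalings, a pseudocount of 5.044, fits without 1 mouse, a block for the range of animal numbers, 1 probe set per gene, limma without trend and the methods' t-test. The code was tested on simulated data, with 1 false call.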

Additional observations from a re-analysis of the deposited data

How the results depend on the processing

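Limma called 0 probe sets, members included, under each alternative that allows a test; within the upper range of animal numbers there was none. Unadjusted counts under 0.05 moved from 360 of all probe sets to 1044 with no filter, 199 with median scaling, 598 with a block for animal number range, 3068 within the lower range, 234 with 1 probe set per gene, 614 by the methods' t-test (0 after adjustment) and 115 (Runx1-WT mouse 1 left out) to 1340 (Runx1-WT mouse 3 left out) with 5 mice. Member counts moved from 2 to 0 (no filter, t-test, mouse 1 of either genotype left out), 1 (median scaling, block, no trend, Runx1-WT mouse 2 left out), 5 (Runx1-WT mouse 3 left out) and 7 (lower range). The median member difference of -0.18 moved to -0.50 within the lower and 0.29 within the upper range, -0.086 with median scaling, and -0.42 to 0.10 on leaving out a mouse, above 0 without Runx1-null mouse 1.

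Gata3, Cited1, Greb1 and Myb kept the sign of their leading probe set in 17, 17, 17 and 18 alternatives. Signs turned in the upper range for Esr1 (0.82), Foxa1 (0.082), Tbx3 (0.16), Stc2 (1.63) and Prom1 (1.38). On leaving out a mouse, Esr1 ran from -0.49 to 0.026, Stc2 from -0.55 to 0.61 and Prom1 from -0.61 to 0.36. With Runx1-WT mouse 1 left out they turned for Esr1 (0.0025), Stc2 (0.15) and Prom1 (0.084), with Runx1-WT mouse 2 left out for Esr1 (0.026) and Stc2 (0.092), and without Runx1-null mouse 1 for Stc2 (0.61) and Prom1 (0.36). Relative to the next Esr1 probe set, Foxa1 (0.028), Gata3 (0.028), Tbx3 (0.099) and Prom1 (0.15) turned, and relative to the luminal genes Stc2 did (-0.15). The cause was not tested. No paired analysis was possible because the labels give no replicate numbers that the genotypes share.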
